A study of Homo sapiens with 6 samples.

Results

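DNA replication and S-phase genes were followed by RNA sequencing in hiPSC-CMs, which are cardiomyocytes differentiated from human pluripotent stem cells in culture. The 49 genes were chosen by name, for their part in copying the genome, with no threshold on a measured value but with earlier results of these data known. All 49 were found by symbol among the 21134 genes of the series, and all 49 were among the 14926 genes with enough counts to be tested. By role they were 6 genes of origin recognition, 8 of licensing and the MCM helicase, 6 of helicase activation, 9 of the polymerases and primase, 8 of the clamp, clamp loader and lagging strand, 4 of nucleotide synthesis, 4 regulators of entry into S phase, and 4 fork and chromatin factors.

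The control group was 2 libraries of untreated hiPSC-CMs, the alcohol group was 2 libraries of hiPSC-CMs kept in 100 mM alcohol for 24 h, and the alcohol + losartan group was 2 libraries of hiPSC-CMs kept in 100 mM alcohol and 1 μM losartan for 24 h. Losartan blocks the angiotensin II type 1 receptor, and the study asked whether blocking it protects cardiomyocytes from alcohol. The cell line is labelled H9, known as an embryonic stem cell line, and it is the only line, so all groups share 1 genetic background. No sample had losartan without alcohol, and the sources used here do not say whether the 2 replicates of a group came from separate dishes or differentiations, so that p-values measure only the spread between these libraries, which may be technical.

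Before S phase, the origin recognition complex marks origins, and CDC6 and CDT1 load the ring-shaped MCM helicase onto them. Cyclin E with its kinase, and the E2F factors that drive transcription of many replication genes, then take the cell into S phase, where CDC45 and the GINS complex turn the loaded ring into an active helicase, polymerases copy the strands on the sliding clamp PCNA, and ribonucleotide reductase, thymidylate synthase and thymidine kinase supply the building blocks. Heart muscle cells divide little after birth, and those made from stem cells resemble fetal cells, some of which still cycle.

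Each library held between 4898287 and 5051448 expected counts (estimated reads per gene), and the members had between 20.21 and 1260.15 of them in a library, with a median of 129.12. At this depth a gene at 0 may hold up to 3 counts, 0.594 to 0.612 CPM, and this limit covers counting error only. The cardiomyocyte marker TNNT2 (cardiac troponin T) had 3193.51 to 3728.26 FPKM, while the endothelial marker PECAM1 had 0.44 to 0.76 FPKM and the pluripotency factor SOX2 at most 0.31 FPKM. These are single genes, and other markers were higher. In control, 5 endothelial genes summed to 5.88 to 6.86 FPKM and 8 pluripotency genes to 16.67 to 17.49 FPKM. In the same libraries 11 fibroblast and epicardial genes summed to 428.98 to 477.21 FPKM and 5 smooth muscle genes to 1699.87 to 1939.6 FPKM. FPKM is the expected count per length of transcript and per library size, so that it can be compared between genes.

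All 49 genes were detected in every library, at 0.76 to 116.89 FPKM. In control cells the highest mean levels were those of TYMS (thymidylate synthase) at 97.8 ± 27.0 FPKM (SD, n = 2), PCNA at 61.3 ± 3.47 FPKM and the helicase subunit MCM3 at 40.7 ± 1.56 FPKM. POLD2, the second subunit of polymerase delta, followed at 39.0 ± 3.82 FPKM, RRM1, the large subunit of ribonucleotide reductase, at 37.0 ± 6.25 FPKM and MCM7 at 34.0 ± 0.672 FPKM. The lowest were ORC1 at 2.49 ± 0.163 FPKM, MCM10, which helps to start the fork, at 2.27 ± 0.276 FPKM and E2F2 at 1.09 ± 0.460 FPKM. Most members lay between these ends, with 10 below 5 FPKM, 30 from 5 to 20 FPKM, 7 from 20 to 60 FPKM and 2 above. When the members were put in order of their control mean, the control libraries of 35 of the 48 neighbouring pairs overlapped, so most steps in that order were not larger than the spread. Subunits of 1 complex differed in level: ORC4 had 33.3 and 34.02 FPKM in control, while ORC1 had 2.37 and 2.6 FPKM.

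**Figure D1:**
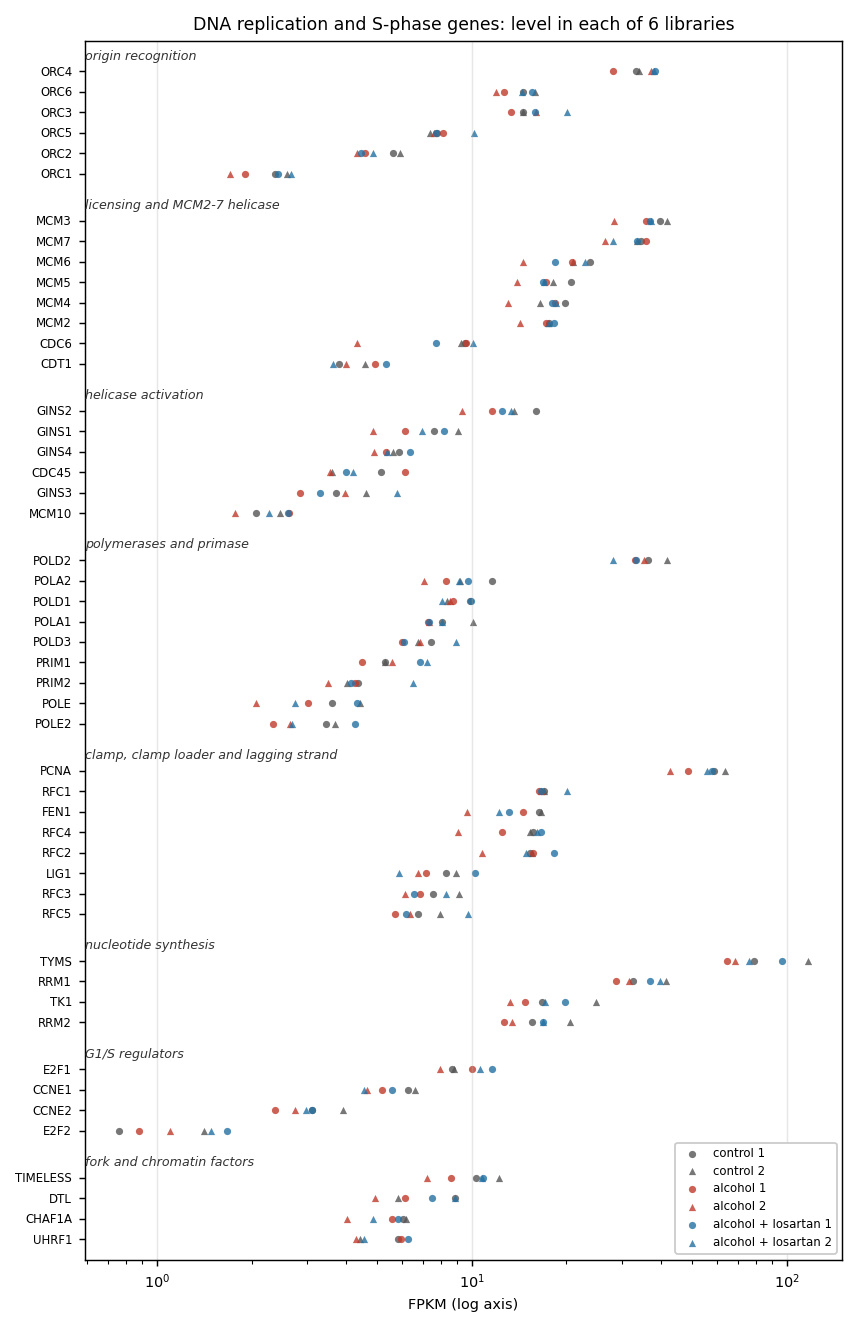
Level of each of the 49 genes in FPKM on a log axis, by role, with 1 point per library (colour for the group, circle for replicate 1, triangle for replicate 2). TYMS and PCNA stand at the right end and E2F2 at the left, and in the nucleotide synthesis genes both alcohol points lie to the left of both control points.

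Since E2F factors act on many of these genes, the promoters listed by RefSeq (GRCh38.p14), 250 bases before to 50 after a start, were searched on both strands for 4 spellings of the E2F motif, TTTCCCGC, TTTGGCGC, TTTCGCGC and TTTGCCGC. Promoters were listed for 44 of the 49 genes (56 promoters, several for 9 genes), and MCM4, MCM5, GINS4, POLD3 and CCNE2 were not matched. At least 1 spelling was found for 22 of the 44 genes (50%), against 1090 of all 27305 genes with a promoter (3.99%). The CCAAT box, CCAAT, was found for 27 of 44 (61.4%) against 39.7% of all genes, and the GC box, GGGCGG, for 32 of 44 (72.7%) against 48.3%. TTTCGCGC read on both strands can overlap itself, and TTTGGCGC can overlap it too, as in the MCM6 promoter. The 250 bases before the start are shown for the 4 genes with a match wholly before the start and the smallest p between alcohol and control, with the match in capitals, 5′ to 3′ on the strand of the gene. They lie at chr18:657403-657652 on the plus strand (TYMS), chr20:5126623-5126872 on the minus strand (PCNA), chr12:132687343-132687592 on the minus strand (POLE, the catalytic subunit of polymerase epsilon) and chr6:52284743-52284992 on the minus strand (MCM3).
TYMS: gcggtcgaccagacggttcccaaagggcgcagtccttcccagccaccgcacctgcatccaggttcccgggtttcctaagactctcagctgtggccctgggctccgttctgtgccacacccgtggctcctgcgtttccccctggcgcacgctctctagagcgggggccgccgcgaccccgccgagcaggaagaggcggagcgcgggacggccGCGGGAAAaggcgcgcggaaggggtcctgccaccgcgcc
PCNA: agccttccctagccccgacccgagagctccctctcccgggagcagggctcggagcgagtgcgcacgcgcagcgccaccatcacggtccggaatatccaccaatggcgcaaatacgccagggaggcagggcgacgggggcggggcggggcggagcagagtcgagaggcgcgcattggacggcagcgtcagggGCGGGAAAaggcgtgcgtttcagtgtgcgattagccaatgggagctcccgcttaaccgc
POLE: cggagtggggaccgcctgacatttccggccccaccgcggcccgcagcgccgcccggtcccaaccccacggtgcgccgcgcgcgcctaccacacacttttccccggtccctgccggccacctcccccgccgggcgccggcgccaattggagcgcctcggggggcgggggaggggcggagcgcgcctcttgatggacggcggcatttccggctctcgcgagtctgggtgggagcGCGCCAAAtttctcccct
MCM3: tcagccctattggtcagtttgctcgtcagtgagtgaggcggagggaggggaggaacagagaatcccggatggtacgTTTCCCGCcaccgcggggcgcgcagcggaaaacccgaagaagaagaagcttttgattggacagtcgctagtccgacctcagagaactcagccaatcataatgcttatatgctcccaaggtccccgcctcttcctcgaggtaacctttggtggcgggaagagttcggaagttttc
The match began at -39 from the start in TYMS, -59 in PCNA, -18 in POLE and -174 in MCM3, and in TYMS, PCNA and POLE it read as the reverse complement. A further match in MCM3, begun at -4, crossed the start and is not shown whole. A match is a string of letters only, and binding was not measured.

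**Figure D2:**
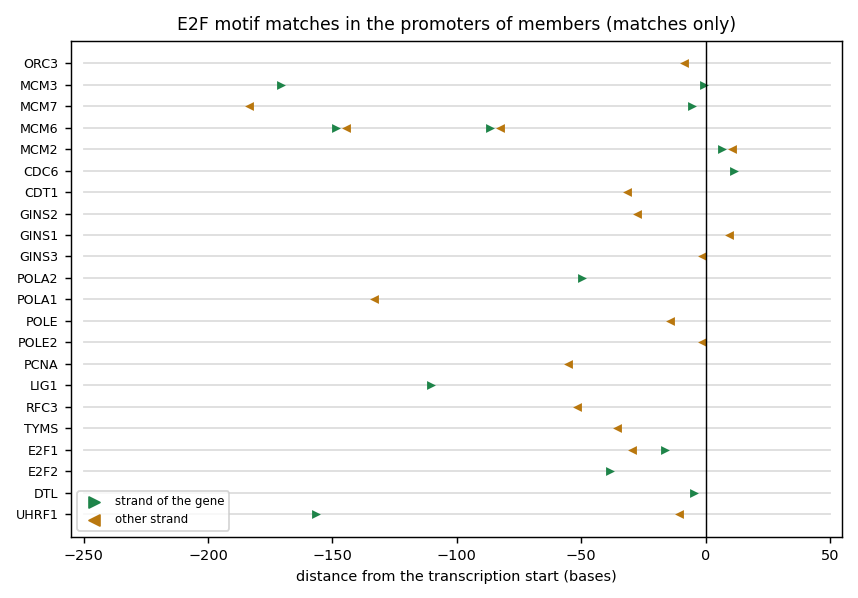
Position of each E2F motif match, in bases from the transcription start, in the promoters of the 22 genes that have one (right-pointing triangles, strand of the gene, and left-pointing triangles, the other strand). Matches sit on both strands, and most lie within 60 bases of the start, with MCM6, MCM3, MCM7, POLA1, UHRF1 and LIG1 having matches farther out.

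To see whether alcohol moved the replication genes, the alcohol libraries were compared with the control libraries. Of the 49 replication genes, 46 had a log2 fold change below 0, against 50.6% of all genes tested, and the median over the members was -0.35 (a change of -21.5%), against -0.0033 over all genes. The fold changes ran from -0.69 (POLE) to 0.12 (CDC45). No member passed edgeR's test at an adjusted p under 0.05, where 10 of all genes (0.067%) did. Neither DESeq2 nor limma called a member. Of all genes, DESeq2 called 72 and limma 0 or 2, by the pseudocount. At an unadjusted p under 0.05, edgeR had 17 members lower, against 5.78% of all genes, and 0 higher, against 5.27%. DESeq2 had 9 members and limma 11, but the share of all genes was not counted for these tools. In FPKM, both alcohol libraries lay below both control libraries for 30 members, against 17.7% of all genes, and above them for 0, against 24.7%. In these bulk samples, fewer cells in S phase and less RNA per cell cannot be told apart.

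**Figure D3:**
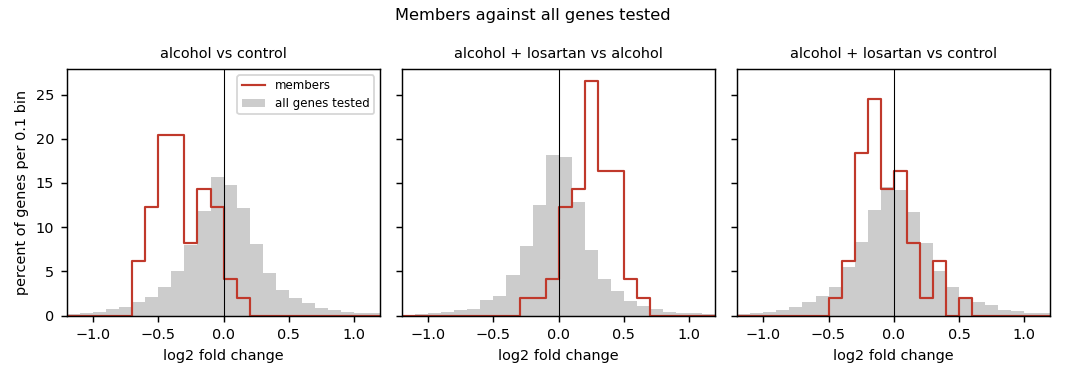
Distribution of log2 fold changes in bins of 0.1, as percent of genes, for the 49 members (red line) and all 14926 genes tested (grey), in the 3 comparisons. The members lie to the left of 0 in alcohol against control, to the right in alcohol + losartan against alcohol, and nearer to 0 in alcohol + losartan against control.

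Nucleotide synthesis had the lowest median of the roles, -0.55, and all 4 genes had an unadjusted p under 0.05. Control replicate 2 set much of this: relative to each gene's mean, the median log2 level of the 4 genes was -0.05 in control replicate 1 and 0.45 in control replicate 2, against -0.30 and -0.25 in alcohol. Without control replicate 2 the median fold change was -0.29, no longer the lowest, as the fork and chromatin factors had -0.40 and licensing -0.36. Nor was it the lowest without alcohol replicate 1, at -0.537. There the fork and chromatin factors had -0.663, the clamp and lagging strand -0.572 and licensing -0.546. TYMS, which makes thymidylate, had 78.72 and 116.89 FPKM in control, 64.67 and 68.42 in alcohol, and 96.98 and 76.12 in alcohol + losartan. Both alcohol libraries were below all others, while the control replicates were far apart. Its log2 fold change in alcohol was -0.59 (SE 0.17, adjusted p = 0.190, edgeR). RRM2, the small subunit of ribonucleotide reductase that is made in S phase, had 15.57 and 20.46 FPKM in control, 12.67 and 13.38 in alcohol, and 16.89 and 16.8 in alcohol + losartan (log2 fold change in alcohol -0.50, SE 0.15, adjusted p = 0.226, edgeR). RRM1, its partner, had 32.56 and 41.4 FPKM in control, 28.63 and 31.68 in alcohol, and 36.9 and 39.62 in alcohol + losartan (-0.33, SE 0.13, adjusted p = 0.375, edgeR). TK1, the thymidine kinase of cycling cells, had 16.77 and 24.87 FPKM in control, 14.8 and 13.22 in alcohol, and 19.72 and 17.11 in alcohol + losartan (-0.61, SE 0.20, adjusted p = 0.271, edgeR). In each of the 4 genes, the alcohol libraries were the 2 lowest of the 6. TYMS overlaps 2 genes on the opposite strand, ENOSF1 at 22.17 to 28.84 FPKM and TYMSOS at 4.99 to 9.25 FPKM, and the strand setting of the counting is not given.

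Among the clamp, its loader and the lagging-strand enzymes the median was -0.41, with 4 of 8 genes at an unadjusted p under 0.05 and 7 of 8 whose alcohol libraries lay below both controls. PCNA, the clamp that holds polymerases on DNA, had 58.87 and 63.78 FPKM in control, 48.46 and 42.52 in alcohol, and 57.94 and 55.76 in alcohol + losartan. The replicates of each group were close, and the 3 groups did not overlap (alcohol against control -0.47, SE 0.13, adjusted p = 0.190, edgeR). RFC4, a subunit of the loader, had 15.64 and 15.31 FPKM in control, 12.44 and 9.03 in alcohol, and 16.59 and 16.16 in alcohol + losartan (-0.57, SE 0.21, adjusted p = 0.325, edgeR). It overlaps EIF4A2 on the opposite strand, which had 169.23 to 201.66 FPKM in control and 251.09 to 308.4 FPKM in the other libraries, above RFC4 in all. RFC3, another loader subunit, had 7.51 and 9.11 FPKM in control, 6.85 and 6.12 in alcohol, and 6.58 and 8.3 in alcohol + losartan (-0.48, SE 0.22, adjusted p = 0.448, edgeR). FEN1, the nuclease that trims Okazaki fragments, had 16.3 and 16.61 FPKM in control, 14.5 and 9.63 in alcohol, and 13.18 and 12.24 in alcohol + losartan (-0.48, SE 0.20, adjusted p = 0.393, edgeR). FEN1 was thus lower than control in all 4 exposed libraries, and it shares exon positions with FADS2 on the same strand (29.84 to 55.53 FPKM), so that reads of the pair may be split. RFC1, RFC2, RFC5 and LIG1, the ligase that seals the fragments, had log2 fold changes from -0.35 to -0.08, none with an unadjusted p under 0.05.

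The fork and chromatin factors were uneven. TIMELESS, which stabilizes the moving fork, had the smallest p of all members: 10.32 and 12.23 FPKM in control, 8.58 and 7.2 in alcohol, and 10.87 and 10.8 in alcohol + losartan. Its alcohol libraries were below all other libraries (alcohol against control -0.55, SE 0.15, adjusted p = 0.185, edgeR). DTL, a substrate adaptor that directs CDT1 for degradation, had 8.82 and 5.85 FPKM in control, 6.13 and 4.92 in alcohol, and 7.47 and 8.85 in alcohol + losartan, so that control and alcohol overlapped (-0.45, SE 0.22, adjusted p = 0.478, edgeR). CHAF1A, a subunit of the factor that places histones behind the fork, had a log2 fold change of -0.39, and UHRF1, which brings DNA methylation to new strands, of -0.04.

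Of the licensing and helicase genes, MCM3 and MCM5 had an unadjusted p under 0.05, and the median was -0.30. Alcohol replicate 2 set this median, which was -0.0062 without it. MCM3 had 39.61 and 41.81 FPKM in control, 35.83 and 28.31 in alcohol, and 36.9 and 37.05 in alcohol + losartan (alcohol against control -0.38, SE 0.14, adjusted p = 0.322, edgeR). MCM5 had 20.7 and 18.14 FPKM in control, 17.16 and 13.96 in alcohol, and 16.83 and 16.94 in alcohol + losartan (-0.36, SE 0.16, adjusted p = 0.437, edgeR). For both subunits all 4 exposed libraries lay below both controls. The other 4 subunits of the ring, MCM2, MCM4, MCM6 and MCM7, had log2 fold changes from -0.37 to -0.16. In MCM7 and MCM4, alcohol replicate 1 lay above a control library (MCM7 at 35.69 against 34.45 and 33.5 FPKM) and alcohol replicate 2 below both. Of the loaders, CDT1 was at 0.07 and CDC6 at -0.46 (SE 0.29, adjusted p = 0.618, edgeR), and a difference between the 2 genes was not tested. CDC6, named after its values were seen, had 9.53 and 9.23 FPKM in control, 9.56 and 4.32 in alcohol, and 7.68 and 10.11 in alcohol + losartan, so that 1 alcohol library stood alone.

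Origin recognition had the median closest to 0, -0.21, an order that did not hold without alcohol replicate 2 or without either control library. ORC2 had 5.61 and 5.92 FPKM in control, 4.59 and 4.33 in alcohol, and 4.45 and 4.87 in alcohol + losartan, with both exposed groups below control (alcohol against control -0.44, SE 0.20, adjusted p = 0.447, edgeR). ORC4, the most abundant subunit, had 33.3 and 34.02 FPKM in control, 28.07 and 37.14 in alcohol, and 38.22 and 37.9 in alcohol + losartan. The alcohol replicates of ORC4 lay on either side of the controls (-0.09, SE 0.13, adjusted p = 0.858, edgeR). ORC1 and ORC6 also had both alcohol libraries below both controls, and ORC3 and ORC5 did not.

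Helicase activation had a median of -0.28. GINS1 had 7.58 and 9.07 FPKM in control, 6.15 and 4.86 in alcohol, and 8.15 and 6.97 in alcohol + losartan (alcohol against control -0.63, SE 0.20, adjusted p = 0.253, edgeR). GINS2 had 15.96 and 13.65 FPKM in control, 11.59 and 9.35 in alcohol, and 12.48 and 13.34 in alcohol + losartan (-0.54, SE 0.23, adjusted p = 0.403, edgeR). These 2 subunits of the GINS complex were lower in both alcohol libraries than in any other library. GINS3 and GINS4 had log2 fold changes of -0.35 and -0.21, MCM10 of -0.07, and CDC45, the partner of GINS in the active helicase, of 0.12 (SE 0.33). CDC45 had 5.16 and 3.59 FPKM in control against 6.16 and 3.54 in alcohol, and the spread within each group was wider than the difference.

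Among the polymerases and primase 3 of 9 genes had an unadjusted p under 0.05, and the median was -0.23. POLE had 3.61 and 4.43 FPKM in control, 3.03 and 2.06 in alcohol, and 4.33 and 2.75 in alcohol + losartan (alcohol against control -0.69, SE 0.24, adjusted p = 0.298, edgeR). POLA2, a subunit of the polymerase alpha that begins each fragment, had 11.56 and 9.2 FPKM in control, 8.29 and 7.04 in alcohol, and 9.74 and 9.09 in alcohol + losartan (-0.47, SE 0.18, adjusted p = 0.335, edgeR). Its catalytic partner POLA1 had 8.06 and 10.1 FPKM in control, 7.26 and 7.34 in alcohol, and 7.31 and 8.06 in alcohol + losartan (-0.35, SE 0.15, adjusted p = 0.416, edgeR). In all 3 genes both alcohol libraries were below both controls. POLE2 had a log2 fold change of -0.55 with a larger error (SE 0.35), and PRIM1, PRIM2, POLD1, POLD2 and POLD3 ran from -0.23 to -0.11.

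The S-phase regulators themselves gave no unadjusted p under 0.05. E2F1 had 8.63 and 8.81 FPKM in control, 10.01 and 7.92 in alcohol, and 11.6 and 10.65 in alcohol + losartan. Alcohol lay on either side of control (0.01, SE 0.18, adjusted p = 0.995, edgeR), and both alcohol + losartan libraries were above the rest. E2F2 had a log2 fold change of -0.18, and the cyclins CCNE1 and CCNE2 had -0.42 and -0.49, with both alcohol libraries below both controls. The members with an E2F motif match had a median of -0.38 (20 of 22 lower, 9 with an unadjusted p under 0.05), and those with a promoter and no match -0.33 (21 of 22 lower, 7 with an unadjusted p under 0.05).

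**Figure D4:**
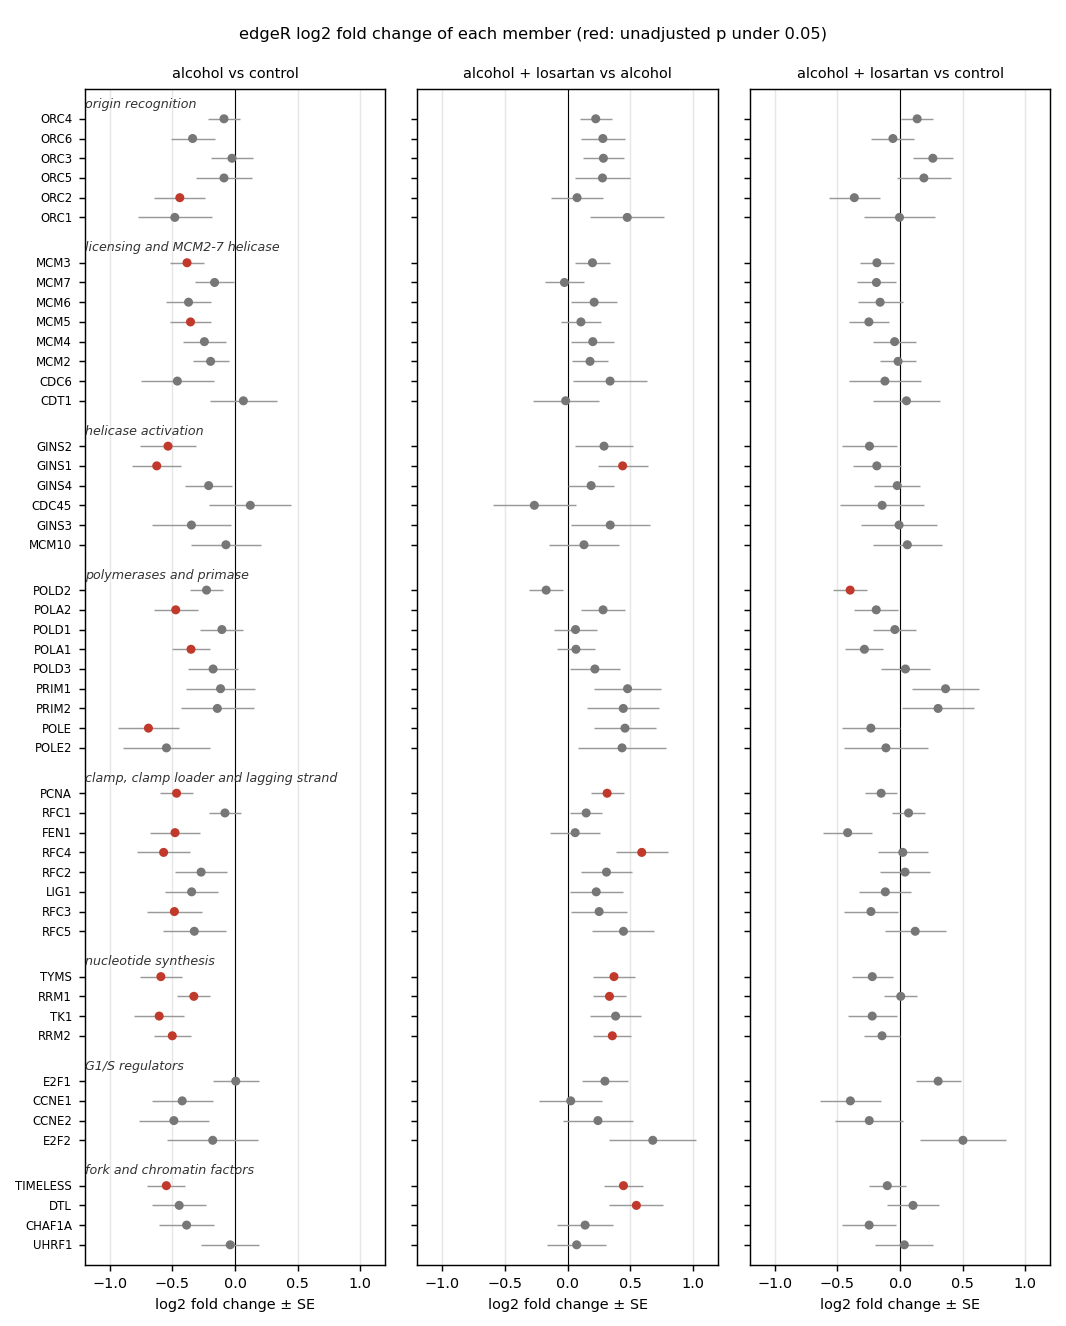
edgeR log2 fold change (point) with its standard error (bar) for each of the 49 genes by role, in the 3 comparisons, red where the unadjusted p is under 0.05. There are 17 red points in alcohol against control, all left of 0, 8 in alcohol + losartan against alcohol, all right of 0, and 1 (POLD2) in alcohol + losartan against control.

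The 2 alcohol libraries did not contribute alike. Alcohol replicate 2 was the lowest of the 6 libraries for 29 members and alcohol replicate 1 for 13, and the members' FPKM summed to 716.69 and 782.33 in control, 632.94 and 576.21 in alcohol, and 730.3 and 705.75 in alcohol + losartan. Relative to each gene's mean, the members' median log2 level was -0.10 in alcohol replicate 1 and -0.26 in alcohol replicate 2, against 0.08 and 0.18 in the controls. Both sums of alcohol were thus below both of control. Without alcohol replicate 2 the median log2 fold change over the members was -0.26, with 39 of 49 lower. Leaving out alcohol replicate 1 instead gave -0.43, with 46 lower, and leaving out control replicate 2 gave -0.28, with 45 lower. Over all genes the medians of these fits were -0.0034, 0.0093 and 0.017. Of the 21 members described here with their values in each library, 19 were chosen by an unadjusted p under 0.05 in some comparison. Of these 21, 17 had a fold change that shrank by over 1.5 times or changed sign when 1 library was left out. Without control replicate 2, TYMS was at -0.28, TK1 at -0.30, RRM2 at -0.30, RRM1 at -0.15, POLA1 at -0.18, POLD2 at -0.13 and RFC3 at -0.32. Without alcohol replicate 2, POLE was at -0.41, GINS2 at -0.35, RFC4 at -0.33, MCM3 at -0.18, FEN1 at -0.18 and MCM5 at -0.18. Without control replicate 1, DTL was at -0.09 and POLA2 at -0.27, and without alcohol replicate 1, ORC4 was at 0.076 and E2F1 at -0.20. TIMELESS, PCNA, GINS1 and ORC2 moved less. TYMS was at -0.82 without control replicate 1, and CDC6 at -1.18 without alcohol replicate 1, each in a fit with 1 library in a group.

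**Figure D5:**
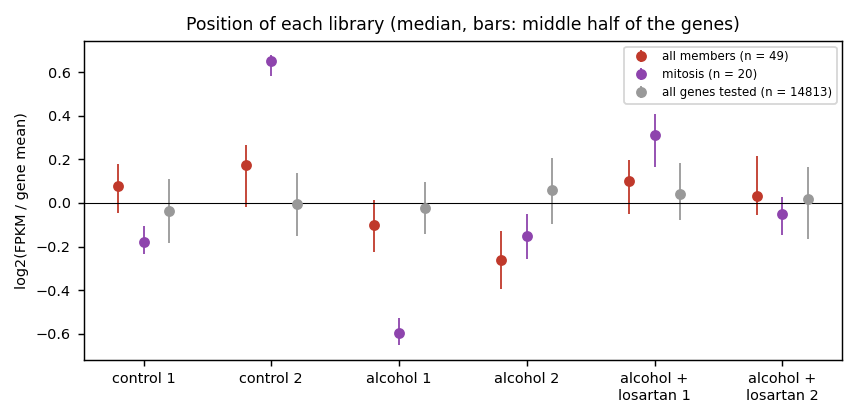
Median log2 ratio of each library's FPKM to the mean of the gene over the 6 libraries, for the 49 members (red), 20 mitosis genes (purple) and all 14813 tested genes with a FPKM above 0 in every library (grey), with bars from the lower to the upper quartile of the genes. The members are lowest in the alcohol libraries, and the mitosis genes differ more between replicates of control and of alcohol than the members do.

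Genes of the phase that follows lay on the same side. Of 20 mitosis genes, such as CDK1 and MKI67, 20 had a log2 fold change below 0 in alcohol against control (50.6% of all genes). Their median was -0.71, and 16 were lower at an unadjusted p under 0.05 (5.78% of all genes). Both alcohol libraries lay below both controls in FPKM for 9 of the 20 (17.7% of all genes). The FPKM of the 20 genes summed to between 316.5 and 557.85 in control, 229.98 and 311.92 in alcohol, and 335.03 and 434.25 in alcohol + losartan. Relative to each gene's mean, their median log2 level was -0.18 and 0.65 in control and -0.59 and -0.15 in alcohol. Control replicate 1 was thus slightly below alcohol replicate 2. The replicates of control differed in these genes, all 20 being higher in replicate 2 by a median of 0.86 on the log2 scale, as were all 20 in alcohol by 0.47, while 1 of 20 was higher in replicate 2 of alcohol + losartan (median -0.41). Of the 49 members, 32, 15 and 21 were higher in replicate 2 of control, alcohol and alcohol + losartan, with medians of 0.03, -0.16 and -0.04. Over all genes with a FPKM above 0 in every library, 8164, 9020 and 6832 of 14813 were higher. In alcohol the members' median thus lay on the other side of 0 from that of the mitosis genes. The part of such a shift in the members' fold changes was not tested.

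Lists of cell type marker genes were summed in the same way, and which cells in the culture held their RNA was not measured. The 5 smooth muscle genes summed to 1699.87 to 1939.6 FPKM in control, 730.43 to 1463.17 in alcohol and 1004.68 to 1044.06 in alcohol + losartan, with ACTA2 lower in alcohol by a log2 fold change of -1.04 (adjusted p = 0.0797, edgeR). The 12 cardiomyocyte genes summed to 26406.4 to 27036 FPKM in control, 19839.8 to 26348.1 in alcohol and 22667.9 to 24755.1 in alcohol + losartan. The 11 fibroblast and epicardial genes summed to 428.98 to 477.21, 492.82 to 526.53 and 483.62 to 530.92 FPKM. The 5 endothelial genes summed to 5.88 to 6.86, 7.43 to 8.53 and 8.9 to 10.53 FPKM, the 7 endoderm and liver genes to 38.08 to 39.42, 50.71 to 53.18 and 49.99 to 51.33 FPKM, and the 8 pluripotency genes to 16.67 to 17.49, 16.47 to 19.28 and 15.51 to 23.96 FPKM. Smooth muscle and cardiomyocyte sums were thus below control in all 4 exposed libraries. The fibroblast, endothelial and endoderm sums were above control in all 4. The cardiomyocyte sum of alcohol replicate 1, 26348.1 FPKM, was close to the 26406.4 FPKM of control replicate 2. Gene by gene, 5 of 12 cardiomyocyte genes were below 0 in alcohol against control (50.6% of all genes), with a median log2 fold change of 0.024. Of the genes tested, 5 of 5 smooth muscle, 3 of 9 fibroblast and epicardial, 2 of 4 endothelial and 1 of 3 endoderm genes were below 0. The part of any of these cell types in the members' values was not tested.

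The pathway holds 77 further genes that are not members, of which 75 were tested. In alcohol against control 56 of them (74.7%) were below 0, against 50.6% of all genes, and 20 (26.7%) had an unadjusted p under 0.05, all lower, against 5.78% of all genes, with a median of -0.20. By group, the kinases and licensing control had 6 of 12 with an unadjusted p under 0.05, the genes of the fork and single-stranded DNA 6 of 18, chromatin and methylation behind the fork 3 of 6, origin firing 2 of 6, G1 cyclins, RB and E2F 2 of 17, CDK inhibitors 1 of 6 and nucleotide supply 0 of 10. DSCC1, a subunit of the alternative loader of PCNA, had 3.8 and 5.03 FPKM in control, 1.73 and 1.25 in alcohol, and 4.37 and 3.3 in alcohol + losartan (alcohol against control -1.60, SE 0.34, adjusted p = 0.108, edgeR). DBF4, the activator of the CDC7 kinase that fires origins, had 4.45 and 6.56 FPKM in control, 3.1 and 2.86 in alcohol, and 4.38 and 4.85 in alcohol + losartan (-0.92, SE 0.23, adjusted p = 0.152, edgeR). Both genes were lower in the 2 alcohol libraries than in any other, and neither passed the test.

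CDKN1A, the p21 inhibitor of cyclin-dependent kinases, which restrains S phase, had 99.27 and 114.15 FPKM in control, 78.65 and 71.42 in alcohol, and 62.72 and 65.58 in alcohol + losartan. The 3 groups did not overlap, with control highest. Its log2 fold change was -0.55 in alcohol against control (SE 0.12, adjusted p = 0.121, edgeR), and -0.78 in alcohol + losartan against control (SE 0.12, adjusted p = 0.0203, edgeR), so that CDKN1A fell in the latter. Over the 14 alternatives the adjusted p of that fall ranged from 0.000131 to 0.286. The call was lost without control replicate 2 (adjusted p = 0.128, edgeR), without alcohol + losartan replicate 1 (adjusted p = 0.157, edgeR) or replicate 2 (adjusted p = 0.286, edgeR), with no filter on low counts (adjusted p = 0.0530, edgeR) and in limma (adjusted p = 0.103 and 0.123, by the pseudocount). In alcohol against control CDKN1A was called by DESeq2 alone (adjusted p = 0.0396), with a range of 0.0396 to 0.738 over the 14 alternatives. Of the other inhibitors, CDKN1B had 25.66 and 24.48 FPKM in control, 19.81 and 24.43 in alcohol, and 25.9 and 22.57 in alcohol + losartan (alcohol against control -0.22). CDKN1C had 24.29 and 21.6, 24.12 and 29.19, and 25.76 and 20.06 FPKM in the same order (0.19). None of these inhibitors had an unadjusted p under 0.05 between alcohol and control. CDKN2B had 1.93 and 1.68, 1.98 and 1.25, and 1.78 and 1.12 FPKM (-0.15), CDKN2C 1.15 and 3.59, 1.88 and 0.97, and 5.22 and 2.37 FPKM (-0.69, SE 0.59), and CDKN2D 7.79 and 8.33, 7.79 and 4.64, and 11.6 and 5.74 FPKM (-0.52, SE 0.35). CDKN2A, at 0.17 to 1.21 FPKM, was too low to test.

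Whether losartan changed these genes in cells given alcohol was asked by comparing alcohol + losartan with alcohol. It shares the alcohol libraries with the comparison above, so that a low value in them makes 1 fold change negative and the other positive. With losartan, 45 of the 49 members had a log2 fold change above 0 (50.3% of all genes), and the median was 0.28 (0.0023 over all genes), with a range from -0.27 (CDC45) to 0.68 (E2F2). No member passed edgeR's adjusted test, which called 2 of all genes (0.0134%). Nor did one pass in DESeq2, which called 5 of all genes, or in limma, which called 1 or 2, by the pseudocount. At an unadjusted p under 0.05, 8 members were higher (2.84% of all genes) and 0 lower (2.71%) in edgeR. DESeq2 had 4 and limma 7 or 8, by the pseudocount, with the share of all genes not counted for these tools. Both alcohol + losartan libraries were above both alcohol libraries in FPKM for 23 members (18% of all genes), and below them for 0 (14.3%).

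The 8 members were TIMELESS at 0.45 (SE 0.15), RFC4 at 0.59 (SE 0.21), DTL at 0.55 (SE 0.22), RRM1 at 0.33 (SE 0.13), PCNA at 0.32 (SE 0.13), RRM2 at 0.36 (SE 0.15), TYMS at 0.37 (SE 0.17) and GINS1 at 0.44 (SE 0.20), with adjusted p-values from 0.836 to 0.896 in edgeR. In each of them both alcohol + losartan libraries were above both alcohol libraries. Nucleotide synthesis again had the largest median by role, 0.36, with 4 of 4 genes separated, and licensing and the MCM helicase the smallest, 0.19, with MCM2 and MCM3 separated. This order did not hold in every fit. Without alcohol replicate 2 licensing was at -0.07, and without alcohol replicate 1 the fork and chromatin factors were the largest, at 0.52. In the latter fit licensing was at 0.39 and origin recognition the smallest, at 0.26. Without alcohol + losartan replicate 1, origin recognition was the largest, at 0.35, and the polymerases and primase the smallest, at 0.15. The members below 0 were CDC45, POLD2 (-0.17), MCM7 (-0.03) and CDT1 (-0.02). The result leaned on alcohol replicate 2: without it the median was 0.17, with 33 of 49 above 0. Without it TIMELESS was at 0.29, PCNA at 0.19, RFC4 at 0.35, DTL at 0.36 and GINS1 at 0.24, and without alcohol + losartan replicate 1 TYMS was at 0.20. Leaving out alcohol replicate 1 instead gave 0.35, with 48 above 0, and leaving out alcohol + losartan replicate 2 gave 0.22, with 42 above 0.

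The mitosis genes were again on the same side, 20 of 20 above 0 and 11 at an unadjusted p under 0.05, with a median of 0.51. Among the 75 tested genes of the pathway, 56 (74.7%) were above 0, against 50.3% of all genes, 10 (13.3%) were higher, against 2.84%, and 1 lower at an unadjusted p under 0.05, and the median was 0.13. The smallest p-values were those of DSCC1 (1.35, SE 0.34, adjusted p = 0.587, edgeR), TOP2A, the topoisomerase of cycling cells (0.68, SE 0.22, adjusted p = 0.836, edgeR), and WDHD1, which ties the helicase to polymerase alpha (0.58, SE 0.20, adjusted p = 0.836, edgeR). TOP2A had 29.69 and 55.29 FPKM in control, 24.2 and 31.47 in alcohol, and 50.88 and 38.57 in alcohol + losartan, and WDHD1 had 4.05 and 3.9, 3.08 and 2.57, and 3.74 and 4.76 FPKM. Alcohol and alcohol + losartan did not overlap in either gene. CDKN2C was higher in both alcohol + losartan libraries than in both alcohol libraries (1.29, SE 0.56, adjusted p = 0.891, edgeR), and CDKN1A was at -0.23 (SE 0.12, adjusted p = 0.900, edgeR).

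Last, alcohol + losartan was compared with control, which it shares with the first comparison. The members lay near control: 32 of 49 had a log2 fold change below 0 (50.2% of all genes), and the median was -0.10 (-0.0017 over all genes), with a range from -0.42 (FEN1) to 0.50 (E2F2). The median was -0.063 without control replicate 2, and -0.048 and -0.052 in limma by the pseudocount, where 27 of 49 were below 0. No member passed the adjusted test of edgeR, which called 54 of all genes (0.362%). Nor did one pass in DESeq2, which called 123 of all genes, or in limma, which called 2 or 3, by the pseudocount. At an unadjusted p under 0.05, 1 member was lower (6.37% of all genes) and 0 higher (6.26%) in edgeR. DESeq2 and limma had 1 each, with the share of all genes not counted for these tools. Both alcohol + losartan libraries were below both controls for 10 members (16.3% of all genes) and above them for 6 (27.1%). As shares of the 49 these were 20.4% and 12.2%. A p above the threshold does not show that the groups were equal.

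POLD2 was the 1 member, with 36.25 and 41.65 FPKM in control, 32.93 and 35.29 in alcohol, and 33.17 and 28.17 in alcohol + losartan (-0.40, SE 0.14, adjusted p = 0.242, edgeR). All 4 exposed libraries of POLD2 were below control. With a library left out, the log2 fold change of POLD2 ranged from -0.50 to -0.31. FEN1 was at -0.42 (SE 0.20, adjusted p = 0.402, edgeR), ORC2 at -0.37 (SE 0.20, adjusted p = 0.483, edgeR) and POLA1 at -0.29 (SE 0.15, adjusted p = 0.474, edgeR). Members near 0 here were RRM1 at 0.01 (SE 0.13), RFC4 at 0.02 (SE 0.20) and TIMELESS at -0.10 (SE 0.15). The 6 members above both controls were ORC3, ORC4, PRIM1, RFC4, E2F1 and E2F2. PRIM1, at 5.3 and 5.31 FPKM in control, shares exon positions with NACA on the same strand (542.1 to 647.92 FPKM). Reads of that pair may be split. The mitosis genes had 18 of 20 below 0 (50.2% of all genes), with a median of -0.22. An unadjusted p under 0.05 was found for 3 of them, where 6.37% of all genes were lower and 6.26% higher.

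Of the 75 tested pathway genes, 44 (58.7%) were below 0, against 50.2% of all genes. At an unadjusted p under 0.05, 5 (6.67%) were lower, close to the 6.37% of all genes, and 0 higher, and CDKN1A was the 1 called. The next smallest p-values were those of DNMT1, the maintenance DNA methyltransferase, with 18.37 and 21.74 FPKM in control, 14.89 and 14.71 in alcohol, and 15.97 and 15.48 in alcohol + losartan (-0.39, SE 0.12, adjusted p = 0.200, edgeR), and of POLE4, a small subunit of polymerase epsilon, with 40.19 and 46.4 FPKM in control, 38.17 and 26.22 in alcohol, and 28.93 and 28.19 in alcohol + losartan (-0.65, SE 0.21, adjusted p = 0.213, edgeR). In DNMT1 and POLE4, as in CDKN1A, all 4 exposed libraries were below both controls.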

How the data were processed

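RNA-seq of 6 libraries, 2 per group, was analysed. Per library, the tables deposited by the authors give each gene's expected count (estimated reads, 33.9% of them not whole, rounded here for testing), its FPKM, scaled by the authors to transcript length and library size, and a transcript length. The submitters' processing notes name HISAT2 2.0.4, Bowtie2 2.2.5 and RSEM 1.2.12 and the build hg38, without their roles. Samples were grouped by their labels.

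Counts were tested with edgeR 4.0.16 (R 4.3.3): the two-sided quasi-likelihood F test, TMM, filterByExpr, all groups fitted together, and p-values adjusted by Benjamini-Hochberg over 14926 genes, called under 0.05. SE is the size of the log2 fold change over the square root of F. An exact permutation test of 2 against 2 cannot go below p = 0.333. Alternatives (14) were DESeq2 1.42.0, limma 3.58.1 on log2(FPKM + 1) and log2(FPKM + 0.1), RLE factors, no filter, at least 10 counts in every library, a replicate block, only the compared groups, and each library left out.

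The members and gene lists were chosen with earlier results of these data known. Values in every library are given for members with an unadjusted p under 0.05 in any comparison and the most abundant of each role, and for pathway genes with the smallest p and the CDK inhibitors. Exon overlaps (11 of 49 members) came from GENCODE v29.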

Additional observations from a re-analysis of the deposited data

How the results depend on the processing

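The count of members called was 0 in each comparison. It stayed 0 under every alternative that kept both libraries of each group. Members called in fits with 1 library in a group are not counted here. The members' median log2 fold change kept its sign under all 14 alternatives. With 1 library left out it ranged from -0.43 to -0.26 in alcohol against control, 0.17 to 0.35 in alcohol + losartan against alcohol, and -0.10 to -0.06 in alcohol + losartan against control, and under the other alternatives from -0.35 to -0.28, 0.23 to 0.28, and -0.10 to -0.05. Only the value of 0.17, without alcohol replicate 2, moved by more than the spread between replicates. A lone library left in a group was assumed to vary like the other groups.

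With the replicate number as a block, the members called were 0, 0 and 0 and the medians -0.35, 0.27 and -0.10. Over all genes tested, replicate differences had correlations of 0.11, -0.02 and 0.04 between groups, which does not settle whether the numbers pair the samples. All 20 mitosis genes were higher in replicate 2 of both control and alcohol. E2F1 in alcohol against control was -0.0015 with the block against 0.0054.

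Of the values of the 21 described members, 861 kept their direction and side of the threshold, and 20 changed sign. The remaining 1 was TYMS without control replicate 1, where control had 1 library. With a library left out, ranges crossed 0 in alcohol against control for ORC4 (-0.26 to 0.076) and E2F1 (-0.20 to 0.20), in alcohol + losartan against alcohol for MCM3 (-0.0027 to 0.42), FEN1 (-0.24 to 0.42), POLA1 (-0.023 to 0.15), MCM5 (-0.072 to 0.30), ORC2 (-0.013 to 0.16) and RFC3 (-0.0012 to 0.47), and in alcohol + losartan against control for TIMELESS (-0.21 to 0.010), TYMS (-0.47 to 0.075), RRM2 (-0.31 to 0.046), TK1 (-0.47 to 0.073), POLE (-0.58 to 0.046), RFC4 (-0.0090 to 0.054), POLA2 (-0.36 to 0.0024), DTL (-0.17 to 0.45) and RRM1 (-0.15 to 0.17). The cause was not tested. The standard errors of the members in alcohol against control, 0.13 to 0.36 on the log2 scale, limit which differences could be called.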
